A study of Homo sapiens with 12 samples.

Results

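MDA-MB-468 is a human triple-negative breast cancer cell line, and the cells sequenced here carried estrogen receptor beta (ERβ1, gene ESR2) under doxycycline control. The 6 libraries covered here, of 12 in all, came from cells that received no doxycycline, and were analysed as absolute transcript levels and chosen by their labels alone. Of these, 3 came from cells given 17β-estradiol (E2, 10 nM) for 4 hr and 3 from cells given 0.1% DMSO vehicle for 4 hr. The other 6 libraries came from cells induced with 50 ng/mL doxycycline for 48 hr and then given E2 or vehicle in the same way. Every group grew in phenol red-free DMEM with charcoal-stripped serum, at 10% for 3 days and then at 5%. The labels do not say whether the engineered line is a single clone or whether replicates came from separate cultures, so the error behind every p-value is the spread among these libraries, which may be technical.

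Triple-negative tumors are defined by the lack of estrogen receptor alpha, progesterone receptor and ERBB2 amplification, and many of them express genes of the basal layer of the mammary duct. In the normal duct, inner luminal cells carry simple-epithelial keratins such as KRT8, KRT18 and KRT19, and outer basal cells carry KRT5 and KRT14 together with contractile proteins. EGFR, a receptor tyrosine kinase that binds EGF, TGFα and related ligands, is often high in basal-type lines.

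The files hold 23228 genes, each with an expected count and a fraction of transcripts. The fraction, rescaled to sum to 1000000, is given here as TPM, a share of transcripts which is corrected for length and so allows levels of different genes to be compared. A gene was called expressed at 1 TPM or more in every one of the 6 libraries. Values after ± are the SD over these libraries (n = 6). Uninduced libraries held 7.89 M to 33.3 M expected counts (M, 1000000), and 134.7 M in all. A gene at 0 counts in all of them is thereby limited to 0.0223 CPM (counts per 1000000 counts), by counting error only.

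ESR2, the inducible gene, was checked first. It stood at 2.37, 1.23 and 1.24 TPM in the uninduced E2 libraries and at 1.36, 1.17 and 1.64 TPM in the uninduced vehicle libraries. The 6 induced libraries held 117 to 167 TPM (median 138). No uninduced library came near the lowest induced one, so ESR2 separated the libraries as labelled.

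No gene was called different between E2 and vehicle without doxycycline. With edgeR's quasi-likelihood test and Benjamini-Hochberg adjustment, 0 of 14541 genes tested (0%) passed an adjusted p of 0.05, and 227 had an unadjusted p under 0.05. DESeq2 also called 0, with 82 at an unadjusted p under 0.05. Chance alone would give more than 227, so the main test was probably conservative. With the replicate number as a block, edgeR's biological coefficient of variation was 2.90%, against 5.34% without it. The block gave 0 calls and 451 genes at an unadjusted p under 0.05. The libraries numbered 2 and 3 alone gave 0 calls and 611 such genes. Part of the main fit's error was therefore spread by library number, and 0 calls do not exclude small responses to E2. Among the 6480 genes with an average log2 CPM of 5 or more, E2 minus vehicle log2 estimates of the main fit lay between −0.20 and 0.25. Standard errors in this set reached 0.547. Over all 14541 genes tested, estimates lay between −8.18 and 8.16, and 49 were beyond 1 in either direction. Levels below are given over all 6 libraries.

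Levels were also stable from library to library. For the 9181 genes with a mean of 10 TPM or more, the median coefficient of variation was 4.61%, and in 8992 of them (97.9%) the highest library was under 1.5 times the lowest. Pairs of libraries correlated at a Spearman rho of 0.990 to 0.997 across these genes, which are not independent replicates. The libraries numbered 1, which carry another run label in the deposited file names, stood apart in 44 of these genes by 1.5 times or more without overlap with the other 4. Of these, 19 were higher in the libraries numbered 1, among them CYP1A1, an enzyme of xenobiotic and estrogen oxidation, and 25 were lower. Run and replicate number cannot be told apart. CYP1A1 had 64.0 TPM on average in the libraries numbered 1 and 21.5 TPM in those numbered 2 and 3.

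Expressed genes numbered 12624 (54.3%), and 4809 genes (20.7%) were listed at 0 counts in every uninduced library. All genes include microRNA symbols (0.65% expressed) and small nucleolar RNA genes (3.30% expressed). Of the 18706 protein-coding genes matched to RefSeq, 63.1% were expressed and 14.3% were listed at 0, with a median of 8.32 TPM. Shares of protein-coding lists below are to be read against these values too. A mean of 100 TPM or more was reached by 1831 genes, and of 1000 TPM or more by 144. The 10 most abundant genes made up 6.13% ± 0.083 of all transcripts and the 100 most abundant 25.9% ± 0.28. The translation machinery took the largest share among the families counted. Cytoplasmic ribosomal protein genes held 13.4% ± 0.11 of transcripts and 43 of the 100 highest ranks. The most abundant single gene was EEF1A1, the elongation factor that brings aminoacyl-tRNA to the ribosome, at 9094 to 10056 TPM (median 9679.6).

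Rank 2 belonged to SEC61G, a small subunit of the channel through which proteins enter the endoplasmic reticulum, at 9017 to 9473 TPM (median 9284). Ranked by CPM, which is not corrected for length, SEC61G, whose transcript is short, stood at 35. Next by TPM came RPS18 at 6511 ± 224 TPM, FTH1 at 6294 ± 542 TPM and TMSB4X at 5978 ± 364 TPM. FTH1 is the ferritin heavy chain, which stores iron, and TMSB4X is an actin-sequestering thymosin. In the libraries numbered 1, FTH1 was higher and TMSB4X lower than in the rest, without overlap. ACTB (beta-actin), RPL39, RPS12, GAPDH and TMSB10 completed the first 10, between 4282 and 5259 TPM on average. Ranks 11 to 20 went to RPL41, MT2A, NPM1, PTMA, EEF1G, ACTG1, RPL8, RPS3, TPT1 and GNB2L1, between 3128 and 4149.7 TPM on average.

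The first 30 ranks held 3 genes of epithelial or secretory character: CD24, a mucin-like surface glycoprotein (lowest 2469, median 3169.5, highest 3296 TPM), KRT19 (lowest 2681, median 2972, highest 3097 TPM) and MGP, an extracellular inhibitor of calcification (lowest 2289, median 2942, highest 3033 TPM). CD24, KRT19 and MGP were each lower in the libraries numbered 1 than in the other 4, without overlap. KRT19 had 2681 and 2726 TPM in the libraries numbered 1 and 2898 to 3097 TPM in the other 4. CD24 averaged 2475 TPM in the libraries numbered 1 and 3222 TPM in those numbered 2 and 3, and MGP averaged 2349.5 TPM in the libraries numbered 1 and 2978 TPM in the other 4. MTRNR2L2 at 2938 ± 153 TPM and the pseudogene RPL13AP5 at 2994 ± 92.6 TPM are near copies of the mitochondrial ribosomal RNA and of RPL13A, so reads may have been split between copies, and these values are uncertain. The reverse also occurred. RPL21, a ribosomal protein gene that every cell uses, was listed at 0 counts in 5 of the 6 libraries and at 20.9 TPM in the third E2 library. H3F3A, a histone gene with near-identical copies, ranged from 0 to 25.04 TPM. A 0 in these files is accordingly reported as a listed value.

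EGFR stood at 902 to 1016 TPM (median 943), rank 154 by TPM and, its transcript being long, rank 13 by CPM. Levels in the 6 libraries overlapped between E2 and vehicle. In genome order (RefSeq), EGFR lies between SEC61G and LANCL2, and its neighbors were abundant as well. LANCL2, a lanthionine synthetase-like protein, had 420.5 ± 4.7 TPM, and VOPP1 had 1485 ± 13.1 TPM. Further along, CCT6A, a chaperonin subunit, had 1655 ± 35.5 TPM and CHCHD2, a mitochondrial protein, 2745 ± 67.4 TPM.

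Among the 29 measured protein-coding genes from 14 places before to 14 places after EGFR, 10 reached 100 TPM (34.5%), against 9.56% of all 18706 protein-coding genes matched to RefSeq. Yet 12 of the 29 (41.4%) were under 1 TPM, against 35.4% of all protein-coding genes. The median of the 29 was 6.00 TPM, below the 8.32 TPM of all protein-coding genes. From SEC61G to SUMF2, a span chosen after the values were seen, 9 of 11 genes reached 100 TPM, and their median was 461 TPM. Since the span was chosen by its values, it is not compared with all protein-coding genes. The stretch was not uniform. Of the 14 genes before EGFR, only SEC61G reached 100 TPM. SEPT14, a septin, had 2.52 ± 0.34 TPM, PHKG1, a phosphorylase kinase subunit, 6.00 ± 0.75 TPM, and VSTM2A, next to SEC61G on the other side, was listed at 0. Gene copy number was not measured in these data.

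**Figure D1:**
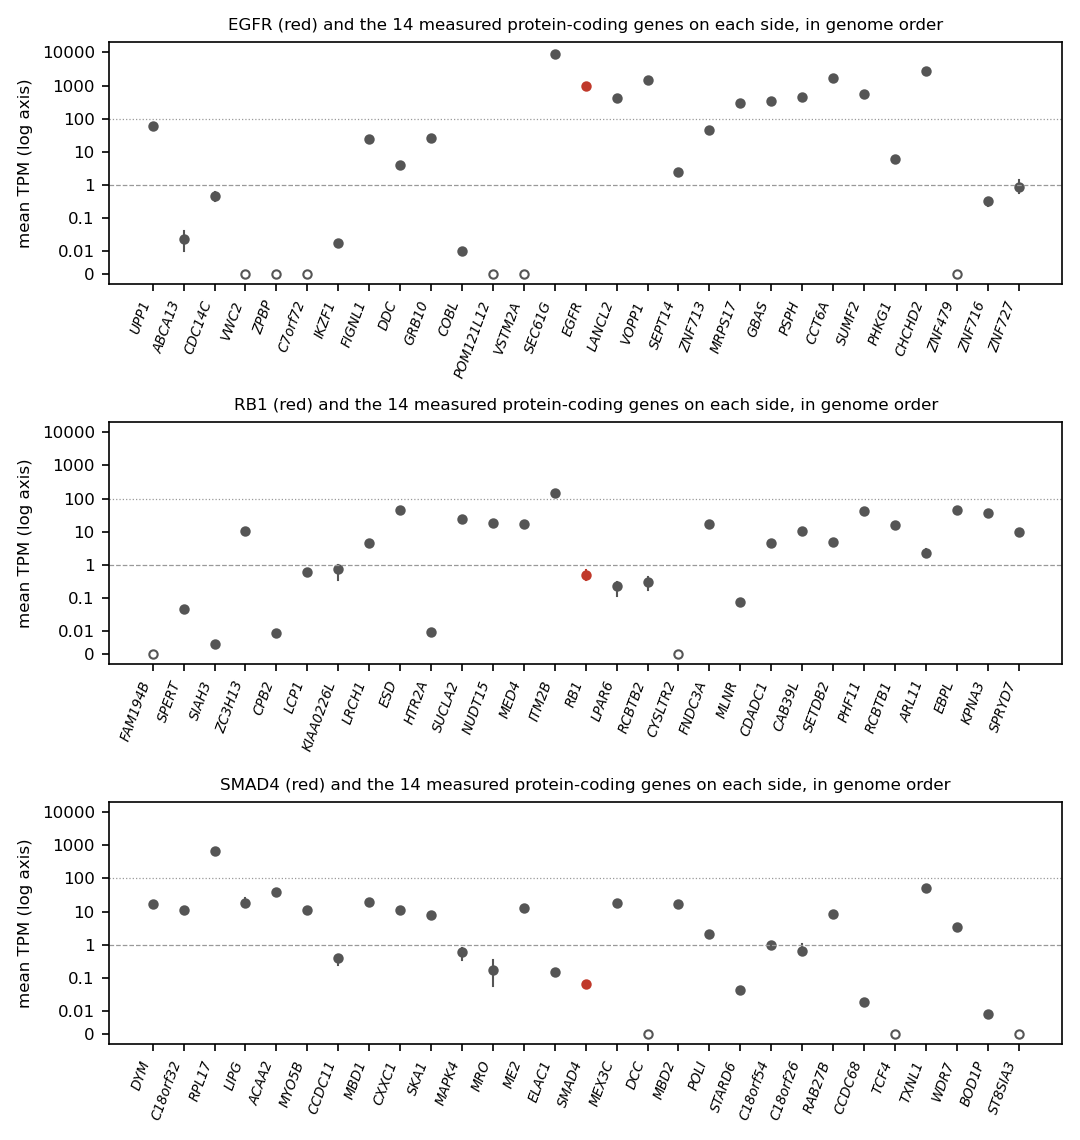
Mean TPM (log axis, 0 drawn as open circles at the bottom) of EGFR, RB1 and SMAD4 in red and of the 14 measured protein-coding genes on each side in RefSeq order, over 6 uninduced libraries, with lines from the lowest to the highest library where all were above 0. From SEC61G to SUMF2, a span chosen after the values were seen, 9 of 11 genes are above 100 TPM. Of the 14 genes before EGFR, only SEC61G is. RB1 (0.481 TPM) and SMAD4 (0.0633 TPM) each have a gene under 1 TPM on one side. On the other side stand expressed genes, ITM2B (146 TPM) beside RB1 and MEX3C (17.7 TPM) beside SMAD4.

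The start regions of SEC61G and EGFR are shown because these neighbors were the most abundant gene and the most abundant receptor tyrosine kinase of the stretch. Each line gives the 250 bases before the transcription start (RefSeq, GRCh38.p14), 5′ to 3′ on the gene's strand, with CG dinucleotides in capitals. SEC61G lies on the minus strand (chr7:54759212-54759461) and EGFR on the plus strand (chr7:55018767-55019016).
SEC61G: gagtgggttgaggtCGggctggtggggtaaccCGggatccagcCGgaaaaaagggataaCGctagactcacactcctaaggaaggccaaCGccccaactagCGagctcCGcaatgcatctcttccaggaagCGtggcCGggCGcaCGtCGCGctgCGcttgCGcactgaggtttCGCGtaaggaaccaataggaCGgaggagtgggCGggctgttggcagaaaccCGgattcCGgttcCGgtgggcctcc
EGFR: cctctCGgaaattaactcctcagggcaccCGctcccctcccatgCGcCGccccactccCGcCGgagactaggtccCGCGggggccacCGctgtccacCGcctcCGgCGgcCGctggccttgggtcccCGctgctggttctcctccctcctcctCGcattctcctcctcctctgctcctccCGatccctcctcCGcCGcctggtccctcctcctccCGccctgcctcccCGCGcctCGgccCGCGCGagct
The SEC61G stretch holds 22 CG dinucleotides at 62.4% GC and the EGFR stretch 25 at 73.6% GC. Neither contains the motif TATAAA on either strand. Both are of the CpG-dense kind that most abundant genes in these cells had, as counted further on.

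The lineage markers were those of an epithelial cell with keratins of both layers. Of 94 lineage genes, 61 were expressed (median 10.1 TPM, against 3.197 TPM over all genes and 8.32 TPM over protein-coding genes). Luminal keratins were the more abundant: KRT19, KRT8 (lowest 2265, median 2411, highest 2505 TPM), KRT18 (lowest 1553, median 1639.8, highest 1763 TPM) and KRT7 (lowest 1602, median 1637, highest 1693 TPM), 4 of 5 listed members above 1000 TPM. Of 8 basal keratins, 7 were expressed, led by KRT17 (lowest 906, median 987, highest 1050.5 TPM) and KRT5 (lowest 757, median 799, highest 875 TPM). KRT14, the usual partner of KRT5, was lower at 168 to 196 TPM (median 186). KRT5 exceeded KRT14 in all 6 libraries, by 4.06 to 5.21 times. KRT6A stood at 1.66 ± 0.58 TPM and KRT6C had 4 counts in all. KRT6A, KRT6B and KRT6C, like KRT14 and KRT16, share much sequence, so their split is uncertain.

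Other basal genes were present in part. TRIM29, a basal marker protein, stood at 213 ± 17.9 TPM, SOX9 at 126 ± 6.4 TPM and FOXC1, a transcription factor of basal-like tumors, at 88.7 ± 4.8 TPM. TP63, the master regulator of stratified epithelium, had only 2.11 to 2.80 TPM (median 2.36). SOX10 had 3 counts in all. Among surface and matrix genes, SFN, S100A2 and the integrin subunit ITGB4 stood at 337 ± 13.2, 299 ± 12.1 and 211 ± 12.1 TPM, and the P-cadherin gene CDH3 at 43.2 ± 0.91 TPM. COL17A1 and DSG3, of hemidesmosomes and desmosomes, were under 1 TPM. Contractile genes of myoepithelium were low: of 8, 2 were expressed in every library, TAGLN at 9.10 ± 1.7 TPM and MYLK at 2.33 ± 0.74 TPM, and ACTA2 stood at 0.466 ± 0.13 TPM.

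Luminal transcription factors were expressed in 10 of 13 cases. XBP1, of the secretory stress response, had 412 ± 9.0 TPM, and the epithelial ETS factors EHF and ELF3 had 279 ± 11.8 and 231 ± 8.7 TPM. GATA3 (34.7 ± 1.6 TPM) and FOXA1 (25.3 ± 1.5 TPM), pioneer factors of luminal cells, were present at moderate level. ELF5, of alveolar progenitors, stood at 7.19 ± 0.97 TPM. Hormone-receptor genes were low. ESR1 had 1.20 to 2.10 TPM (median 1.45) and so counted as expressed, and PGR had 6 counts in all. ESR1 was highest in the libraries numbered 1 (1.87 and 2.10 TPM), with 1.20 to 1.47 TPM in the rest. TBX3, a transcription factor of this list and not a hormone receptor, was listed at 0.

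Secreted and surface luminal genes divided likewise. EPCAM (445 ± 4.1 TPM), CLDN7 (321 ± 9.9 TPM), MUC1 (278 ± 20.7 TPM), AGR2 (257 ± 7.0 TPM) and CLDN4 (162 ± 7.2 TPM) were abundant. The estrogen-responsive trefoil peptides TFF1 and TFF3, and the milk protein genes CSN2, CSN3 and LALBA, were listed at 0 in every library. E-cadherin (CDH1) stood at 64.3 to 68.5 TPM (median 66.0). Its mesenchymal counterpart CDH2 (N-cadherin) and SNAI2 were listed at 0, ZEB1 had 0.0961 ± 0.048 TPM and ZEB2 1 count in all. Vimentin (VIM) had 9.13 to 14.7 TPM (median 10.2), and CDH1 exceeded it in 6 of 6 libraries. Yet CD44, ALDH1A3, NT5E and PROM1, genes of the same list used as stem or mesenchymal markers, stood at 700.3 ± 67.8, 318 ± 52.4, 283 ± 20.9 and 158 ± 6.5 TPM.

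**Figure D2:**
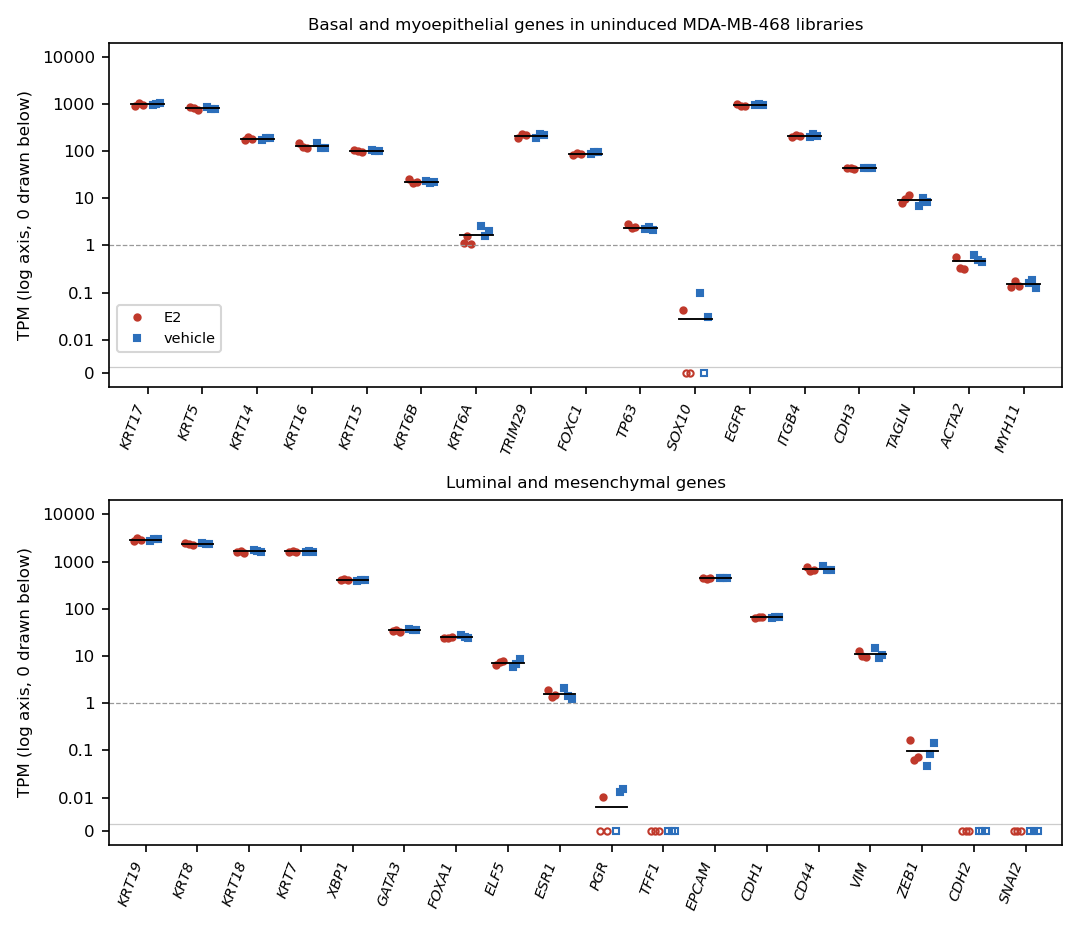
TPM (log axis, 0 drawn as open symbols at the bottom) of lineage genes in each uninduced library, E2 as red circles left of vehicle as blue squares, with the mean over 6 libraries as a bar and 1 TPM as a dashed line. Keratins of both layers lie above 1 TPM, KRT5 at 757 to 875 TPM and KRT19 at 2681 to 3097 TPM, while TFF1, CDH2 and SNAI2 are listed at 0.

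Of the 4 genes used to check the label of the line, EGFR, KRT5 and KRT14 each exceeded 100 TPM in every library and ESR1 did not pass 2.10 TPM. Of the other receptors behind the triple-negative label, PGR reached no more than 0.0153 TPM and ERBB2 stood at 31.6 ± 0.59 TPM. Markers of other cell types were mostly low. Of 64 such genes, 9 were expressed (14.1%, against 54.3% of all genes) and 22 were listed at 0, with a list median of 0.0492 TPM against 3.197 TPM for all genes. The fibroblast genes DCN, LUM and POSTN, the lymphocyte genes CD3D, CD2 and MS4A1, and the endothelial genes TIE1 and CLDN5 were listed at 0. The 9 expressed were TUBB3, a tubulin best known from neurons (109 ± 3.4 TPM), CD14 (44.6 ± 5.9 TPM), the iron carrier TF (23.3 ± 4.3 TPM), KDR (15.6 ± 2.5 TPM), ENO2 (9.85 ± 1.2 TPM), MBP (8.98 ± 0.64 TPM), COL1A1 (8.14 ± 0.56 TPM), the lysosomal protein CD68 (6.26 ± 1.2 TPM) and CSF1R (3.87 ± 0.18 TPM). PTPRC, COL1A2 and CDH5, which define leukocytes, fibroblasts and endothelium, were under 1 TPM in every library. In bulk RNA, fewer cells of a type and less RNA per cell cannot be told apart.

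Nuclear receptors are ligand-regulated transcription factors, and 28 of the 49 measured were expressed (57.1%, against 54.3% of all genes and 63.1% of protein-coding genes). Their median was 2.90 TPM, against 8.32 TPM for protein-coding genes. The highest was the orphan receptor NR2F6 at 134 ± 5.3 TPM, the only one with a mean of 100 TPM or more. NR1H2, which senses oxysterols, had 72.6 ± 2.4 TPM, and ESRRA, a regulator of mitochondrial genes that does not bind estradiol, 71.2 ± 1.6 TPM. Steroid receptors were low. NR3C1, the glucocorticoid receptor, led them at 18.6 to 22.1 TPM (median 19.2) and exceeded ESR1 in every library, by 10.3 to 16.4 times. NR3C2, the mineralocorticoid receptor, had 3.26 ± 0.28 TPM.

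ESR1 and ESR2 were at a like level in TPM before induction. In CPM, which is not corrected for length, ESR1 had 3.58 to 6.21 and ESR2 1.06 to 2.30. Whether the ESR2 reads came from the cells' own gene or from the uninduced inducible copy was not tested. The TPM ratio, ESR1 over ESR2, lay between 0.729 and 1.55, and ESR1 was the higher in 4 of 6 libraries. GPER, a membrane receptor for estradiol, had 1.77 to 2.54 TPM (median 2.05). Of 9 thyroid, retinoid and vitamin D receptors, 7 were expressed. RXRB, RARG, RXRA and VDR stood at 47.1 ± 1.6, 34.8 ± 0.59, 34.1 ± 1.1 and 27.6 ± 1.3 TPM. Among those listed at 0 were ESRRB, ESRRG, RXRG, HNF4G and NR0B1. Of the genes that make or inactivate estrogens, HSD17B12 was the highest at 279 ± 6.6 TPM and CYP19A1, the aromatase that makes estradiol, had 6 counts in all.

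Of the 54 receptor tyrosine kinases, 29 were expressed (53.7%, against 54.3% of all genes and 63.1% of protein-coding genes). Their median was 2.73 TPM, against 3.197 TPM for all genes and 8.32 TPM for protein-coding genes. On average 4 reached 100 TPM: EGFR, the collagen receptor DDR1 (lowest 419.9, median 428, highest 438 TPM), the WNT-pathway pseudokinase PTK7 (lowest 151, median 159, highest 166 TPM) and the HGF receptor MET (lowest 152, median 156, highest 162 TPM). EGFR exceeded MET by 5.86 to 6.43 times. Within its own family, EGFR was 28.9 to 31.7 times ERBB2. ERBB3, the partner that lacks strong kinase activity, had 48.5 ± 1.4 TPM and was above ERBB2 in 6 of 6 libraries. ERBB4 had 3 counts in all.

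All 4 FGF receptors were expressed, FGFR1 at 24.3 ± 0.72 TPM being the highest and FGFR3 at 7.61 ± 0.36 TPM the lowest. The insulin receptor INSR had 26.7 ± 1.8 TPM and IGF1R 6.98 ± 0.38 TPM. Of 14 EPH receptors, which bind membrane-bound ephrins, 8 were expressed, led by EPHB4 at 70.7 ± 1.2 TPM, and EPHA5 and EPHA7 were listed at 0. The VEGF receptor KDR stood at 15.6 ± 2.5 TPM, while TIE1 was listed at 0 and TEK had 16 counts in all. Neurotrophin and fusion-prone kinases were low: NTRK2 at 1.59 ± 0.13 TPM was the only one expressed in every library of 7, ALK had 2 counts and NTRK3 was listed at 0.

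Growth factor genes were mostly low. Of 62, 26 were expressed (41.9%, against 54.3% of all genes) and 13 were listed at 0, with a list median of 0.289 TPM. Only VEGFB, a ligand of FLT1, had a mean above 100 TPM (lowest 132, median 132, highest 143 TPM). PDGFC, TGFB2 and VEGFA followed at 95.6 ± 7.5, 78.4 ± 4.5 and 48.9 ± 3.2 TPM. Every one of the 9 TGF-beta family ligands was expressed, the lowest being TGFB3 at 1.55 ± 0.21 TPM.

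For EGFR the most abundant ligand gene was TGFA at 20.7 to 25.3 TPM (median 21.6). It exceeded EGF in every library, by 10.4 to 17.0 times. HBEGF, AREG and BTC stood at 5.31 ± 0.30, 4.85 ± 1.8 and 4.45 ± 1.0 TPM, and AREG, an estrogen-responsive gene elsewhere in the breast, ranged from 2.76 to 7.85 TPM. The neuregulins NRG1, a ligand of ERBB3 and ERBB4, and NRG3 were listed at 0. So were PDGFD, VEGFC and FIGF. HGF, the ligand of MET, had 1 count in all, IGF1 39 and IGF2 16, and none of the 3 insulin-like ligand genes was expressed. KITLG had 21.9 ± 1.0 TPM while its receptor KIT had 0.699 ± 0.12 TPM.

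**Figure D3:**
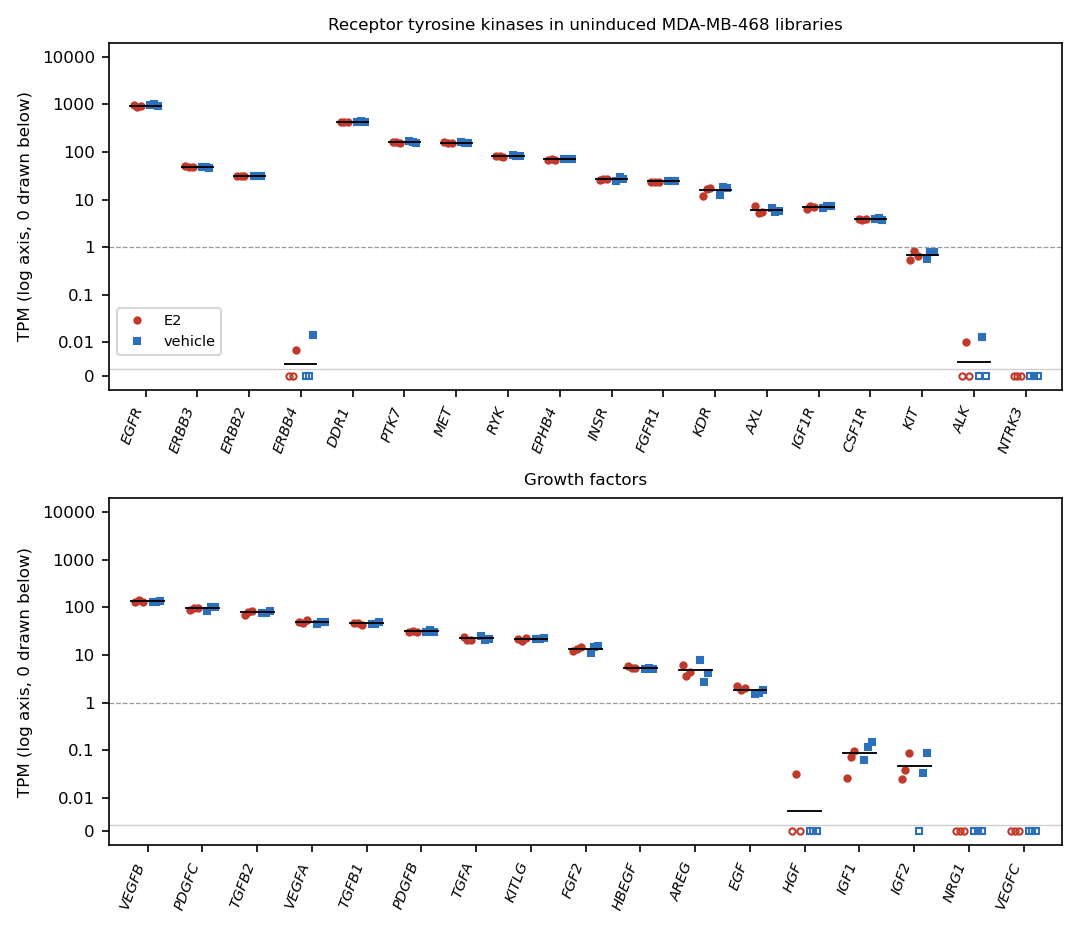
TPM (log axis, 0 drawn as open symbols at the bottom) of receptor tyrosine kinase and growth factor genes in each uninduced library, E2 as red circles left of vehicle as blue squares, with the mean over 6 libraries as a bar and 1 TPM as a dashed line. EGFR stands above every other receptor shown, ERBB4, HGF and ALK were seen in 1 or 2 libraries, and NTRK3, NRG1 and VEGFC are listed at 0.

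Tumor suppressors were widely expressed, at 72 of 76 (94.7%) with a median of 19.3 TPM, against 54.3% and 3.197 TPM for all genes. Among the 4 exceptions were RB1, SMAD4 and DLC1. RB1, the retinoblastoma protein that restrains entry into S phase, had 0.338 to 0.682 TPM (median 0.473), from 137 counts in all. Its relatives RBL2 and RBL1 stood at 49.6 ± 1.1 and 9.12 ± 0.68 TPM. CDKN2A, the inhibitor of CDK4 and CDK6, was high at 120.5 to 133 TPM (median 126), and above CDKN2B by 4.37 to 4.84 times. CDKN2A also makes a second protein, ARF, and the gene-level value does not separate the transcripts.

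SMAD4, the shared mediator of TGF-beta and BMP signals, had 0 to 0.0945 TPM (median 0.0708), from 40 counts. SMAD2, which pairs with it, stood at 16.7 to 18.7 TPM and SMAD3, another partner, at 14.9 ± 0.77 TPM, and the receptors TGFBR2 and TGFBR1 at 39.3 ± 2.2 and 17.8 ± 0.40 TPM. Low values near RB1 and SMAD4 were not limited to these genes. Next to RB1, LPAR6, which lies within it, RCBTB2 and CYSLTR2 were under 1 TPM, between ITM2B (146 ± 4.8 TPM) and FNDC3A (17.6 ± 0.75 TPM). ELAC1, beside SMAD4, had 0.152 ± 0.093 TPM, between ME2 (12.5 ± 0.86 TPM) and, past SMAD4, MEX3C (17.7 ± 0.80 TPM). These runs were noticed after the values were seen, and gene deletion was not measured. Of the 29 genes centered on RB1, 12 (41.4%) had a mean under 1 TPM, and of the 29 centered on SMAD4, 13 (44.8%). Among all protein-coding genes the share was 35.4%.

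All 10 DNA repair genes of the list were expressed, MSH6 at 105 ± 2.7 TPM and BRCA1 and BRCA2 at 14.9 ± 1.2 and 7.17 ± 0.60 TPM. The chromatin remodelers SMARCB1 and SMARCA4 led their group at 167 ± 4.0 and 136 ± 5.8 TPM. SFRP1, a secreted WNT antagonist, was the highest of the whole list at 238 to 279 TPM (median 276), and DLC1, a GTPase-activating protein, was listed at 0.

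Proliferation genes were all expressed, 20 of 20, with a median of 144 TPM, PCNA at 884 ± 18.5 TPM and MKI67 at 55.6 ± 3.4 TPM marking the range. Of 49 oncogenes, 45 were expressed. CTNNB1 and YES1 led at 248 ± 7.6 and 215 ± 5.5 TPM, and MYC had 52.4 to 62.1 TPM (median 53.3). CDK4 exceeded CDK6 by 19.0 to 21.2 times. Among D cyclins, CCND3 had 87.3 ± 6.1 TPM and CCND1 41.2 ± 1.5 TPM, and CCND2 was listed at 0. BCL2 had 1.42 to 1.56 TPM, while the related survival genes MCL1 and BCL2L1 had 179 ± 6.6 and 132 ± 4.0 TPM.

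**Figure D4:**
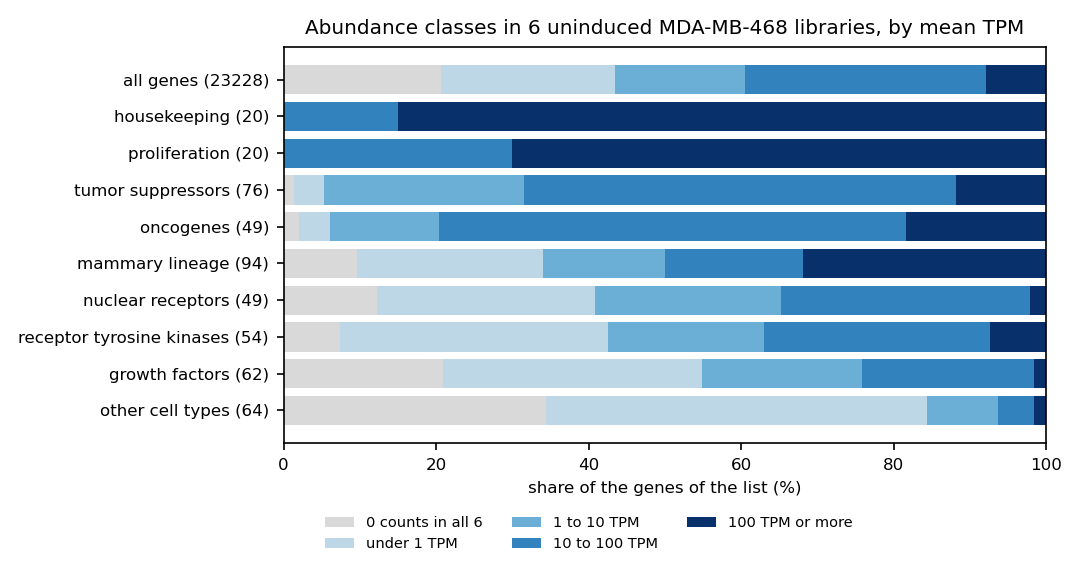
Share of the genes of each list (horizontal axis, percent, number of genes in brackets) in 5 classes of mean TPM over the 6 uninduced libraries. Housekeeping and proliferation genes fall wholly at 10 TPM or more, tumor suppressors are expressed at 72 of 76, and 54 of 64 markers of other cell types are under 1 TPM or at 0 counts.

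Of the families counted, microRNA gene symbols gave the most genes listed at 0 (1170 of 1229), followed by olfactory receptors and small nucleolar RNA genes (253 of 364). Whether the library preparation captures such short RNAs was not tested, so zeros of microRNA and small nucleolar RNA genes are not read as silence. Several families known from other tissues were also mostly at 0. Olfactory receptors were at 0 in 345 of 376 cases, keratin-associated proteins of hair in 72 of 88 and beta-defensins in 36 of 38, DEFB1 being the abundant exception at 80.1 to 107 TPM (median 91.6). Late cornified envelope genes (18 of 18) and small proline-rich genes (11 of 11), which build the cornified layer of skin, were listed at 0 in every library, in cells that carried 757 to 875 TPM of KRT5. The HOX clusters encode positional transcription factors. All 9 HOXD genes were listed at 0. In the HOXC cluster 7 of 9 genes were expressed (77.8%), HOXC10 at 34.4 to 39.2 TPM (median 36.8), in the HOXA cluster 6 of 11 (54.5%) and in the HOXB cluster 4 of 10 (40%). Among all genes 54.3% were expressed, and among protein-coding genes 63.1%. The differences between clusters were not tested.

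Promoters were then counted by class of level. Windows of 300 bases, 250 before and 50 after the start, were counted as CpG-dense where the ratio of observed to expected CG was 0.6 or more and GC content 50% or more (14984 promoters; 83.0% of genes matched, chromosome 8 not used). CpG-dense promoters made up 25.4% of the 2050 promoters of genes at 0 counts, 70.5% at 1 to 10 TPM, 84.6% at 10 to 100 TPM and 85.3% at 100 TPM or more, against 65.0% overall. The motif TATAAA, on either strand, was present in 21.2% of promoters of genes at 0 counts, 6.36% at 1 to 10 TPM, 4.51% at 10 to 100 TPM and 7.27% at 100 TPM or more (9.37% overall). Median GC content of the windows was 51.7% at 0 counts, 64.3% at 1 to 10 TPM, 66% at 10 to 100 TPM and 64.7% at 100 TPM or more. How far base composition alone sets the TATAAA shares was not tested. Genes above 0 counts but under 1 TPM are part of the overall shares. On their own they give no value here, because 77.9% of them had a promoter entry, under the 80% set as the least for a class, which genes at 0 counts passed narrowly with 80.3%.

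**Figure D5:**
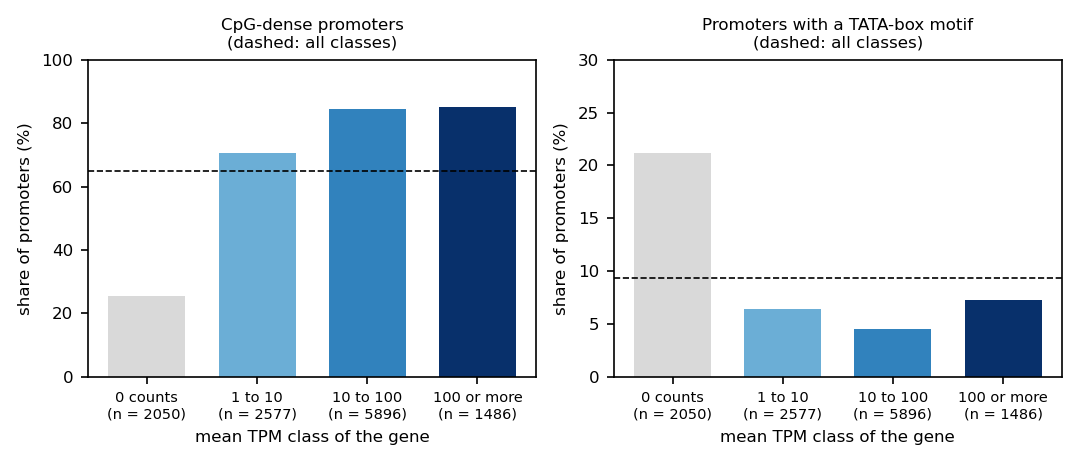
Share of promoters (vertical axes, percent) that are CpG-dense (left) and that contain TATAAA on either strand (right), by mean TPM class of the gene over 6 uninduced libraries; the number of promoters is under each bar and the dashed line is the share over all classes. CpG-dense promoters make up 25.4% at 0 counts and 85.3% at 100 TPM or more.

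The families at 0 were of both kinds. None of 17 late cornified envelope promoters and none of 74 keratin-associated protein promoters was CpG-dense, and TATAAA was present in 8 and 58 of them. By contrast, 7 of 8 HOXD promoters were CpG-dense while every HOXD gene was listed at 0. The promoter of CDH2, which was also at 0, belonged to the same dense kind. One promoter of each is shown to set these kinds side by side, again as the 250 bases before the start (RefSeq, GRCh38.p14), 5′ to 3′ on the gene's strand. Capitals mark CG dinucleotides and the motif TATAAA. Positions are chr2:176116528-176116777, plus strand, for HOXD10 and chr18:28177131-28177380, minus strand, for CDH2. Those of the others are chr1:152685873-152686122, plus strand, for LCE2B and chr21:30881581-30881830, minus strand, for KRTAP11-1.
HOXD10: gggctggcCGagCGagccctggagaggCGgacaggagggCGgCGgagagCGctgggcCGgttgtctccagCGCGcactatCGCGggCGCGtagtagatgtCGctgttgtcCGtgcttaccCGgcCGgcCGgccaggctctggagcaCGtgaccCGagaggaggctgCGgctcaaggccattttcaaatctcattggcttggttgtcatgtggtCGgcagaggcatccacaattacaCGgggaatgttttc
CDH2: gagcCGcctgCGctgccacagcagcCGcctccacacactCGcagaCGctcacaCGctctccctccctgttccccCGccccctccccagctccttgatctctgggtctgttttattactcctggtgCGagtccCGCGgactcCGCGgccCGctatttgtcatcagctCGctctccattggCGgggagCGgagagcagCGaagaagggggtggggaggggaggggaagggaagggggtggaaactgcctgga
LCE2B: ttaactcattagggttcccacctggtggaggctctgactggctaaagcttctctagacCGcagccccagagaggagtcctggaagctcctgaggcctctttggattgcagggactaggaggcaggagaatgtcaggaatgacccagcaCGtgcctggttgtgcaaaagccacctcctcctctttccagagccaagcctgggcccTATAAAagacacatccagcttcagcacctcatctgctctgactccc
KRTAP11-1: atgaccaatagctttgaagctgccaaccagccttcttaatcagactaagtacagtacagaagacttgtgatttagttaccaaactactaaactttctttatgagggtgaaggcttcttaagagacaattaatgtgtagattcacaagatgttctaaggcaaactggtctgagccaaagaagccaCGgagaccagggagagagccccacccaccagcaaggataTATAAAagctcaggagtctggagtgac
HOXD10 holds 23 CG dinucleotides and CDH2 17, beside 22 for SEC61G and 25 for EGFR above, whereas LCE2B holds 2 and KRTAP11-1 1. TATAAA is present in LCE2B and KRTAP11-1 and in neither of the other two. A motif match is a description of the letters and shows no binding.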

How the data were processed

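RNA was extracted with the RNeasy Plus kit and sequenced after Illumina TruSeq V2 preparation, as the labels state. The deposited files give, per gene, an RSEM expected count and the authors' fraction of all transcripts, adding up to 1 per library. The submitters' processing notes name RSEM 1.1.16, DESeq 1.7.10 and the hg19 build, without the role of DESeq. No aligner is named in the labels used here.

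Fractions were rescaled to sum to 1000000 (TPM), and CPM was computed from the expected counts of each library. The test was edgeR 4.0.16 (R 4.3.3) on rounded expected counts, after filterByExpr (minimum count 10, minimum total 15) and TMM scaling, with 1 mean per group over all 12 libraries. An adjusted p under 0.05 was a call, and DESeq2 1.42.0 was an alternative. The steps were tested on simulated data. Same-numbered libraries of different groups deviated together (correlations of 0.104 to 0.464, median 0.246, 18 pairs, 12376 genes). Differently numbered ones gave −0.427 to 0.278 (median −0.220, 36 pairs), a range that overlaps. How much of this comes from the libraries numbered 1 alone was not tested. The numbers were therefore tried as a pairing only in an alternative fit. This pairing comes from the data, since the labels only number the replicates. Intervals and floors cover counting error only.

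Gene symbols were matched to RefSeq (21831 of 23228), whose gene order gave the neighbors and whose GRCh38.p14 promoter table gave the sequences. No coordinate of the hg19 files is printed. Named were the 20 genes with the highest mean TPM, EGFR, KRT5, KRT14 and ESR1, and members of the lists by role, the highest 2 and those listed at 0 first. Neighbors of EGFR, RB1 and SMAD4, genes ranked 21 to 30, family members and genes set apart by library number were named after their values were seen. A few genes that the rule would name are not reported here. The samples, gene lists and tests were chosen with earlier results of these data known. Alternatives were other scalings, no filter, fewer libraries, a replicate block, other thresholds, thinning to the smallest library and CPM in place of TPM.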

Additional observations from a re-analysis of the deposited data

Results flagged for a closer look

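In each of the 6 libraries, the levels of the genes named above with a mean of 1 TPM or more, and 3 summaries of a library, were searched for a single value far from the other 5. Of 169 values 15 were set off in this way, and chance does so in about 1 of 20. The first vehicle library, which has the fewest counts, was highest in CCND3 (99.3 TPM), FOXA1 (28.3 TPM), MYC (62.1 TPM), NR3C1 (22.1 TPM) and the number of genes at 0 counts (7276), and lowest in COL1A1 (7.03 TPM). The first E2 library was highest in HBEGF (5.87 TPM), MT2A (4223 TPM) and RBL1 (10.5 TPM), and lowest in RARG (33.7 TPM). The third E2 library was lowest in CDH3 (41.4 TPM) and VOPP1 (1460.2 TPM) and the only one with RPL21 (20.9 TPM). CDK6 was highest in the second vehicle library (7.45 TPM) and MTRNR2L2 in the third (3236 TPM).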

How the results depend on the processing

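The number of genes called for E2 minus vehicle was 0 with RLE or upper quartile scaling, no filter, only the 6 uninduced libraries, DESeq2, the libraries numbered 2 and 3, and the replicate number as a block (451 genes at an unadjusted p under 0.05 with the block, against 227 without). Leaving out each library gave 0 to 1 call, the 1 being ZNF321P without the second vehicle library (edgeR, adjusted p = 0.0231). The pairing therefore changed no call. Leaving out 1 library gave 12638 to 12714 expressed genes, 4858 to 5005 genes at 0, 1823 to 1833 genes of 100 TPM or more and 6.11% to 6.15% of transcripts in the first 10 genes. The share of the first 10 was 4.55% in CPM and 6.51% without ribosomal protein genes, and the first 100 held 25.9%. With the CpG-dense rule raised to a ratio of 0.75 and 55% GC, chosen after seeing the data, shares were 16.1% at 0 counts and 67.2% at 100 TPM or more. Thinned to the smallest library, 12470 genes were expressed and 5592 listed at 0, so depth sets part of the count at 0. Levels of the named genes moved by less than 1 SD in 1848 of 1848 recomputed values. Most of these were means with libraries left out, which cannot move by 1 SD of the same 6 values. This count therefore tests little. By fold, of 165 named genes of 1 TPM or more (RPL21 not counted), 1 moved by over 1.5 times when libraries were left out. That gene was CYP1A1, by 1.66 times. RPL21 rests on 1 library, and CYP1A1 on the libraries numbered 1 (21.5 TPM without them, against 35.7 TPM).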

Other observations

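Cancer-testis antigens, normally made in the germline, were mostly near 0. MAGEA3 (lowest 431, median 454, highest 469 TPM), MAGEA6 (lowest 432, median 437, highest 440.3 TPM), MAGEA12 (lowest 204, median 209, highest 212 TPM), MAGEA2B (lowest 151, median 165, highest 189 TPM) and MAGEA2 (lowest 150.3, median 165, highest 173 TPM) summed to 1429 TPM, and the next MAGE gene, MAGEA1, had 0.542 ± 0.25 TPM. In all, 5 of 24 MAGE genes were expressed, and 40 of 50 genes of the GAGE, SSX, XAGE, PAGE and CTAG families were listed at 0, while XAGE2 (lowest 1.42, median 4.52, highest 6.72 TPM) and XAGE2B (lowest 4.69, median 7.64, highest 11.2 TPM), which are near copies, were expressed. MAGEA3 and MAGEA6, like MAGEA2 and MAGEA2B, are near-identical, so the sum is firmer than the split. B2M, the light chain of class I antigen-presenting molecules, stood at 2835 ± 99.0 TPM. TAP1, a peptide transporter, stood at 162 ± 9.9 TPM. Class II genes were low: HLA-DRA had 10 counts in all and its regulator CIITA 0.460 ± 0.16 TPM. Of 2 related checkpoint ligands, VTCN1 (B7-H4) stood at 479.8 to 526 TPM (median 518) and CD274 (PD-L1) at 0.228 ± 0.080 TPM.

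Calcium-binding S100 genes were expressed in 15 of 20 cases (75%) with a family median of 296 TPM, against 3.197 TPM for all genes, S100A6 leading at 1744 ± 23.4 TPM and S100A9 at 1028 ± 63.5 TPM. WNT ligands were expressed in 7 of 19 cases (36.8%, against 54.3% of all genes), WNT6 at 138 ± 6.7 TPM and WNT7B at 62.1 ± 3.6 TPM, and 8 of 10 frizzled receptors (80%) were, FZD6 at 126 ± 4.7 TPM. Interleukins were expressed in 4 of 39 cases (10.3%) and chemokines in 7 of 41 (17.1%), with IL18 at 23.8 ± 1.2 TPM and CXCL16 at 43.1 ± 3.2 TPM the highest of each.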
